A study of Mus musculus with 2 samples.

Results

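Shallow cells were defined as cells in which fewer than 2000 UMIs (unique molecular identifiers, each marking 1 captured transcript) had been counted. They were chosen by this total alone in the count files of 2 enteroid libraries, and made up 1334 of 4374 cells (30.5%). The control library held 444 shallow cells among 2563 (17.3%, 95% exact interval 15.9 to 18.8). The library labelled Taf4IEC held 890 among 1811 (49.1%, 46.8 to 51.5), which was 31.8 percentage points more (29.1 to 34.5). With 486350 and 765625 UMIs, the shallow cells carried 1.22% and 3.06% of all UMIs of their libraries. Since the total chose the cells, these shares and depths are a description and not a finding.

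Enteroids are cultures of intestinal epithelium grown from crypts, here from the ileum of 4-month-old mice of strain C57Bl6/129sv. The Taf4IEC enteroids were Taf4lox/lox::VilCreERT2, in which the villin promoter drives a tamoxifen-activated Cre in the intestinal epithelium, so that 4-hydroxytamoxifen (4-OHT) removes the floxed part of Taf4, which encodes a TFIID subunit, TFIID being a factor that starts transcription at promoters. They were exposed to 1 µM 4-OHT for 3 days from day 5 of culture, and on day 8 live cells were sorted by flow cytometry and captured on the 10X Chromium platform, which counts transcripts from their 3′ ends. The control enteroids carried the same floxed alleles (Taf4lox/lox). The methods and the label disagree on their treatment, which was the same drug in the methods and ethanol in the label. There was 1 library for each condition, and whether a library pooled several cultures or mice is not given in the sources used here. There were hence no replicates and no test, and all 95% intervals (exact for counts and shares, Newcombe for a difference of shares) cover counting error only. The targeted gene, Taf4, did not have a lower level where the label would have it, with 13 UMIs (0.170 per 10000) in the shallow cells labelled Taf4IEC against 5 (0.103) in those of the control and 0.0921 against 0.0692 per 10000 in deeper cells. Since 3′ counts do not show which exons a transcript holds, the label was neither checked nor contradicted by them, and the condition is called Taf4IEC as labelled.

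In droplet sequencing, the UMIs of a barcode depend on the RNA content of the captured cell and on the yield of the droplet's reactions, and any droplet also takes up some RNA that is free in the cell suspension. The crypt epithelium holds dividing stem and progenitor cells and the types they give rise to. Among these, goblet cells make mucus proteins, Paneth cells antimicrobial peptides, enteroendocrine cells hormones, and enterocytes the machinery of nutrient uptake. Secretory cells devote much of their messenger RNA to a few such products, so that each cell normally carries the transcripts of 1 lineage in large amounts.

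The lowest totals in the files were 502 UMIs in a control cell and 501 in a Taf4IEC cell. The median shallow cell had 1035 UMIs and 534.5 genes in the control and 694 UMIs and 438 genes in Taf4IEC, compared with medians of 18715 and 29103 UMIs in the 2119 and 921 deeper cells. The Taf4IEC shallow cells therefore lay lower within the range, with 660 cells of 500 to under 1000 UMIs and 230 of 1000 to under 2000, against 216 and 228 in the control. Just inside the limit, the 29 control cells of 1800 to under 2000 UMIs had a median of 796 genes and 4.28% mitochondrial UMIs, and the 22 cells in the range of equal width just outside it had 873.5 genes and 3.53%. In Taf4IEC the 21 cells just inside had 907 genes and 2.39%, and the 14 just outside 971.5 genes and 2.68%. The cells on either side of the limit were thus alike in these measures. The libraries shared 2 cell barcodes, of which 1 was shallow in either library and 0 in both. When every cell was thinned at random to 500 UMIs, the shallow and deeper control cells had nearly equal numbers of genes, with medians of 312 and 311. In Taf4IEC the shallow cells had more, with a median of 344 (quartiles 335 and 353) against 327 (310 and 344).

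**Figure D1:**
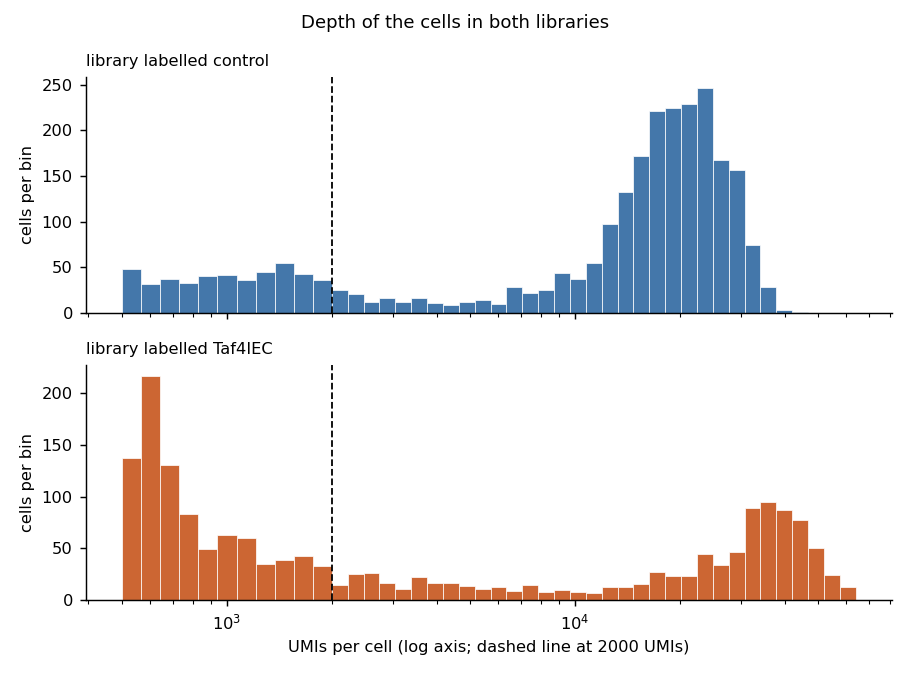
Number of cells (vertical axis) against UMIs per cell (horizontal log axis) in the control and Taf4IEC libraries, with the limit of 2000 UMIs as a line. The 444 control and 890 Taf4IEC shallow cells lie to its left, and most Taf4IEC ones lie below 1000 UMIs.

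In both libraries the pooled transcripts of shallow cells were mostly those of the deeper cells of the same library. Levels are given as UMIs per 10000 UMIs of the pooled cells, and ratios as log2 of the shallow over the deeper level, so that 1 is a 2-fold higher and -1 a 2-fold lower level. Over 2351 genes, log2 levels (with 0.1 added) correlated with r = 0.969 between shallow and deeper cells of the control and 0.964 in Taf4IEC. The shallow cells of both libraries correlated with r = 0.940, and the deeper cells with 0.938. These are correlations across genes, which are not independent. Of the genes that reached a mean level of 0.5 per 10000, 85.3% had a log2 ratio within 0.5 of 0 in either library, and the median ratios were -0.02 and 0.05. In the control 20 of 2241 genes (0.892%) were past 2-fold higher in shallow cells and 17 (0.759%) past 2-fold lower. In Taf4IEC these were 38 of 2498 (1.52%) and 16 (0.641%). Because the pooled level of a rule-defined set of cells is described here, the counts say which genes lay past the limit and no more.

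Past 2-fold higher in both libraries were 9 genes, namely Gm26917, AY036118, Lars2, Gm42418, Rpgrip1, Ghrl, Defa30, Hist1h1e and Hist1h4d. Past 2-fold lower in both were Cdkn1a, which encodes the cell cycle inhibitor p21, and mt-Nd1, which encodes a subunit of complex I. Of the 9 genes, 8 fall into 4 of the groups described next: a list named for the ribosomal DNA locus, hormones, defensins and histones. Rpgrip1, whose product is known from the connecting cilium of photoreceptors, belonged to none of the lists and was at 0.884 against 0.154 per 10000 in the control (log2 ratio 2.53, 2.04 to 2.97) and 0.927 against 0.0883 in Taf4IEC (3.39, 2.98 to 3.79).

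The transcripts of a list named for the ribosomal DNA locus were far more abundant in shallow than in deeper cells. Gm42418, AY036118 and Lars2 are the genes by which shallow cells had been marked, and Gm26917, a long noncoding RNA, was listed with them. Together the 4 reached 173 per 10000 in control shallow cells against 24.9 in deeper ones (log2 ratio 2.80, 2.76 to 2.83), and 397 against 42.3 in Taf4IEC (3.23, 3.21 to 3.25). All 4 were past 2-fold higher in either library, so that the label matched its markers. The marker genes and the cells they describe came from the same counts, and this match is no independent evidence.

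Gm42418 is listed by RefSeq as a synonym of Rn18s-rs5, an 18S ribosomal RNA related sequence at chr17:39846354-39848202 (GRCm38.p6). Its level was 140 against 23.2 per 10000 in the control (log2 ratio 2.60, 2.56 to 2.63) and 268 against 34.7 in Taf4IEC (2.95, 2.93 to 2.97). AY036118, a long noncoding RNA at chr17:39848112-39898385, overlaps it by 91 bases, so reads there may be split between them. AY036118 stood at 9.03 against 0.780 (3.53, 3.39 to 3.68) and at 16.7 against 1.26 (3.73, 3.63 to 3.82). Both were thus higher in the shallow cells of either library, and AY036118 by the larger factor. Lars2, at chr9:123366927-123462675, encodes the mitochondrial leucyl-tRNA synthetase and stood at 4.40 against 0.514 (3.1, 2.89 to 3.30) and at 9.01 against 0.826 (3.45, 3.32 to 3.57). The median share of these 4 transcripts in a cell was 1.09% against 0.225% in the control and 2.35% against 0.313% in Taf4IEC.

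The level of Gm42418 fell with depth across all 5 bins of the control, and in Taf4IEC only from the limit upward. In the control it went from 174 per 10000 in cells of 500 to under 1000 UMIs through 124, 102 and 63.7 to 21.1 in cells of 10000 or more. In Taf4IEC the values in the same 5 bins were 258, 282, 189, 94.0 and 29.9, so that the 2 bins of shallow cells were close to each other and higher than those above them. Against deeper cells of 2000 to under 10000 UMIs alone, the summed ratio was accordingly smaller, at 1.12 in the control and 0.53 in Taf4IEC, and with every cell given the same weight it was 2.47 and 1.74. Inside the shallow range there was little relation with depth: Spearman's rho of the share of these transcripts with UMIs was -0.14 over 444 cells and 0.05 over 890, against -0.58 and -0.59 over deeper cells. As total UMIs are also the denominator of the share, these values are a description.

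**Figure D2:**
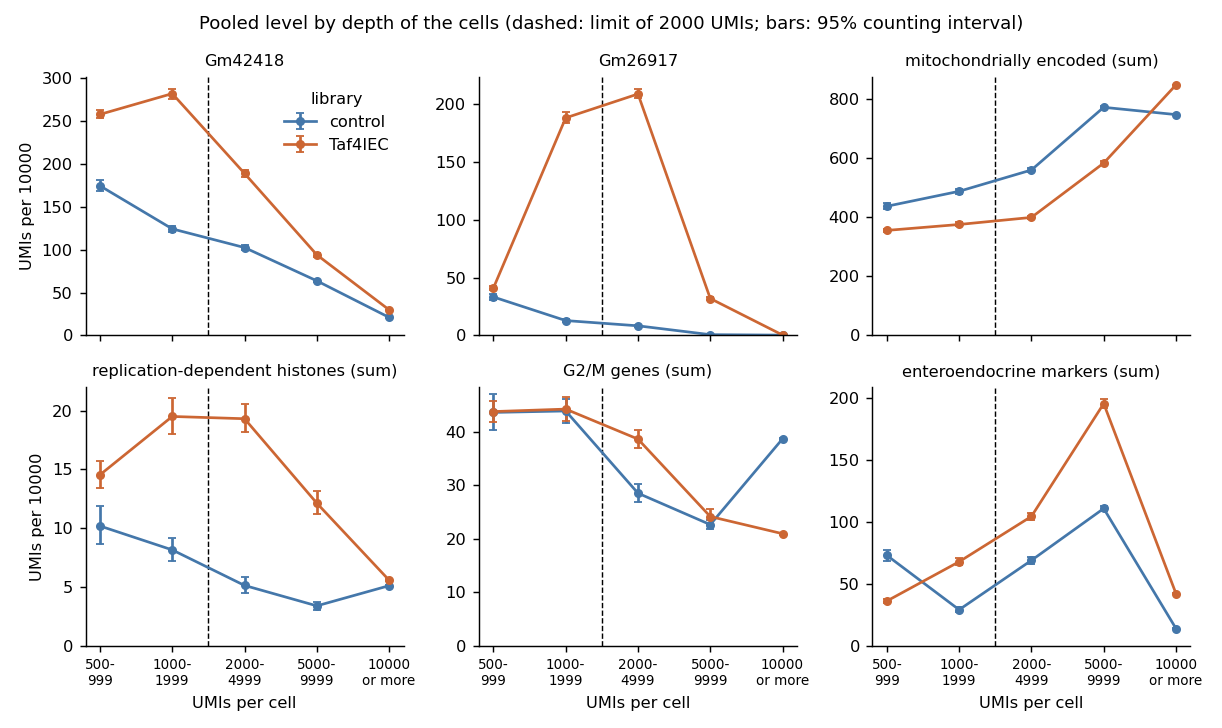
Pooled level (UMIs per 10000) of 6 gene groups in 5 bins of UMIs per cell for the control and Taf4IEC, with exact Poisson intervals for counting error. Gm42418 is lowest in the cells of 10000 or more UMIs (21.1 and 29.9), the mitochondrial sum is lowest in the shallowest bin (438 and 356), and a dashed line marks the limit of 2000 UMIs.

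Gm26917 behaved differently from Gm42418 within the shallow cells and lay in a minority of them, and it was concentrated among deeper cells too. Its pooled level was 19.5 against 0.404 per 10000 in the control (log2 ratio 5.59, 5.47 to 5.71) and 103 against 5.56 in Taf4IEC (4.21, 4.17 to 4.25). The 10 richest shallow cells held 71.9% of its UMIs in the control and 40.9% in Taf4IEC, the richest carried 1301.5 and 3232.0 per 10000, and the median shallow cell had 0. In Taf4IEC the level was 41.0, 188, 209, 31.9 and 0.376 in the 5 depth bins, and against deeper cells of 2000 to under 10000 UMIs the ratio turned to -0.25. Gm42418 was spread more evenly, with 40.4% and 38.0% of its UMIs in the richest 10% of shallow cells and medians of 93.3 and 208 per 10000 in the single cell. The counts of single genes per cell, and the selection of cells by them, were added after the values were seen.

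Malat1, a nuclear long noncoding RNA (chr19:5795690-5802672), was higher in the pooled shallow cells and lower in the median shallow cell. Pooled, it was at 68.1 against 43.9 per 10000 in the control (log2 ratio 0.63) and 109 against 72.8 in Taf4IEC (0.59). In the median cell it was at 20.9 against 32.4 and at 35.7 against 48.0. The pooled ratios against deeper cells of 2000 to under 10000 UMIs were also negative, at -0.49 and -0.13. The richest 10% of shallow cells held 70.7% and 66.9% of its UMIs, against 31.0% and 35.0% among deeper cells. Those 44 control cells had a median of 25.5% ribosomal protein UMIs and the other 400 had 37.6%, and the 89 Taf4IEC cells had 22.2% and the other 801 had 27.1%. Goblet transcripts were also lower in them, with medians of 26.8 against 38.4 per 10000 in the control and 22.4 against 81.6 in Taf4IEC. Of the 89 Taf4IEC cells 24 were also among the 89 richest in Gm26917, each set being 10% of the shallow cells. In the control fewer than 44 shallow cells had a Gm26917 UMI, so the overlap of 19 there rested partly on ties at 0. The cells next to the Malat1 rank limit differed little, at 83.3 and 82.2 per 10000 in the control and 194 and 192 in Taf4IEC. Neighbouring ranks are often this close, so these values cannot show whether the top cells are a type.

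Mitochondrially encoded transcripts, which encode subunits of the respiratory chain and ATP synthase, were lower in shallow cells. Summed over 13 genes they were at 472 against 748 per 10000 in the control (log2 ratio -0.66, -0.68 to -0.64) and at 365 against 834 in Taf4IEC (-1.19, -1.21 to -1.18). Of the 12 genes that reached the minimum level, 1 was past 2-fold lower in the control and 8 in Taf4IEC, and 0 were past 2-fold higher. For mt-Nd1 the levels were 17.9 against 39.0 (-1.12) and 18.0 against 49.7 (-1.46). For mt-Co1, a subunit of cytochrome c oxidase, they were 114 against 173 (-0.60) and 71.8 against 184 (-1.36). The exception was mt-Atp8, a subunit of ATP synthase, with ratios of -0.03 and 0.84. For mt-Nd1 the ratios against deeper cells of 2000 to under 10000 UMIs were -0.64 and -0.35. The median share per cell was 3.67% against 7.12% in the control and 2.74% against 7.31% in Taf4IEC, which was lower in shallow cells of either library, all of them under the authors' limit of 15%. Nuclear genes of the respiratory chain did not share the difference, with summed ratios of 0.09 and 0.07 and 0 of 24 genes past 2-fold.

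The lists of cytoplasmic mRNAs differed less. Cytosolic ribosomal proteins, the protein parts of the ribosome, were at 3587 against 3389 per 10000 in the control (log2 ratio 0.08) and 2592 against 2510 in Taf4IEC (0.05), and 0 of 81 were past 2-fold. Housekeeping mRNAs had summed ratios of -0.11 and -0.24 and glycolytic enzymes -0.29 and -0.50, also with 0 genes past 2-fold in either list. Gapdh, a glycolytic enzyme counted in both lists, had one of the lower values, with -0.60 in the control and -0.90 in Taf4IEC. Epithelial identity genes (keratins, claudins and others) were at 0.01 and -0.01. Of 21 markers of immune, mesenchymal, endothelial, erythroid and glial cells the files list 11, of which 5 had 0 UMIs in the shallow cells of both libraries and 6 had UMIs, and their sum was 0.0617 per 10000 in the control and 0.196 in Taf4IEC. The epithelial genes summed to 81.8 and 121 per 10000 in the same cells.

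**Figure D3:**
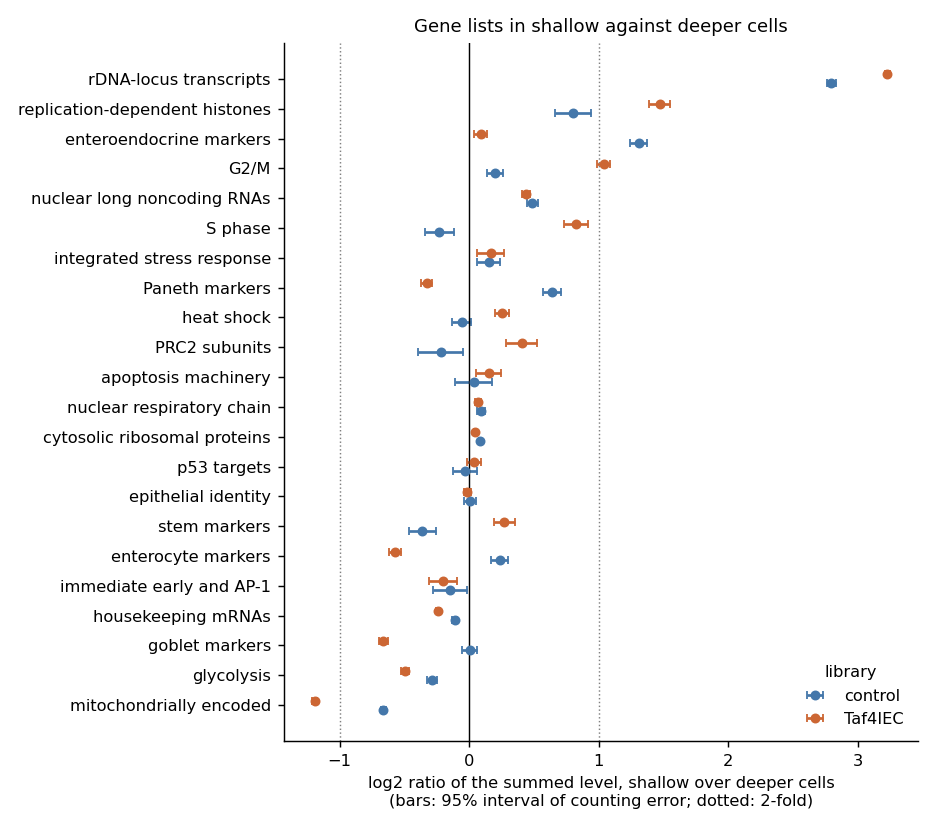
Log2 ratio of the summed level in shallow over deeper cells (horizontal axis) for each gene list (vertical axis) in the control and Taf4IEC, with 95% intervals for counting error. The ribosomal DNA list stands apart at 2.80 and 3.23, the mitochondrial list lies at -0.66 and -1.19, and most other lists lie within 1 of 0.

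The transcripts of differentiated cells were spread over many more of the shallow cells than of the deeper cells when each cell was thinned to 500 UMIs. Among control shallow cells 80.9% (76.9 to 84.4) carried at least 1 UMI of the 10 goblet markers, against 34.7% (32.7 to 36.8) of deeper cells. In Taf4IEC the shares were 91.5% (89.4 to 93.2) and 51.4% (48.1 to 54.6). The Paneth list was found in 66.7% against 17.3% of control cells and 75.8% against 29.6% of Taf4IEC cells. For enteroendocrine markers the shares were 45.0% against 17.5% and 51.3% against 26.6%, and for enterocyte markers 68.7% against 45.1% and 81.8% against 59.4%. All 4 lists, in both libraries, were thus found in a larger share of shallow cells. The trait was not particular to them, as G2/M genes had 84.5% against 60.1% and 83.4% against 55.4%, and histones 34.9% against 16.7% and 50.3% against 28.2%. Stem markers had 51.4% against 52.9% and 49.3% against 39.6%. The cells compared had the same depth after thinning, and the comparison was added after earlier values had been seen.

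The lists met in the same cells. At least 3 of the 4 lists had a UMI in 249 of 444 control shallow cells (56.1%, 51.3 to 60.8) and in 254 of 2119 deeper cells (12.0%, 10.6 to 13.4). In Taf4IEC this held for 658 of 890 shallow cells (73.9%, 70.9 to 76.8) and 216 of 921 deeper cells (23.5%, 20.8 to 26.3). The share declined over the depth bins, still at 500 UMIs per cell, from 66.7% through 46.1%, 35.9% and 26.2% to 9.03% in the control and from 80.3% through 55.7%, 41.7% and 30.0% to 18.5% in Taf4IEC. It was thus highest in the shallowest cells of either library and passed the limit of 2000 UMIs without a step. With the 2 most abundant genes of each list left out, the shares were 19.4% against 6.28% in the control and 42.4% against 14.1% in Taf4IEC. Among cells under 5% mitochondrial UMIs they were 60.5% against 22.8% and 77.1% against 44.4%, so that the order held in both alternatives, which were chosen after seeing the data.

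Single genes showed the same. Tff3, a secreted trefoil peptide of goblet cells, had a UMI in 55.4% of shallow against 24.1% of deeper control cells and in 74.0% against 32.8% in Taf4IEC. Spink4, a further goblet product, had 47.1% against 14.6% and 71.0% against 26.4%. Defa24, a Paneth cell defensin, had 52.7% against 8.31% and 44.5% against 10.9%. Genes that all epithelial cells use gave no such gap. Epcam, an epithelial adhesion molecule, was found in 43.2% against 46.1% and in 42.4% against 40.9% of cells, and Eef1a1, a translation factor, in 98.9% against 97.8% and 95.1% against 93.7%. Markers of other tissues had a UMI in 0 of 444 control shallow cells, which allows a share of up to 0.676%, and in 0.787% of Taf4IEC shallow cells, 0.869% of Taf4IEC deeper cells and 0.283% of control deeper cells.

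For the goblet list of the control the pooled levels differed far less than the shares. For control enteroendocrine markers level (43.1 against 17.4 per 10000) and share (45.0% against 17.5%) differed about equally. In Taf4IEC the goblet level was lower in shallow cells (96.8 against 153 per 10000), while the share was higher (91.5% against 51.4%). In the control the pooled level of the goblet list was 48.3 against 48.1 per 10000, yet the median cell, not thinned, had 16.0 against 1.23 per 10000 of Tff3 and 10.8 against 0.797 of Spink4. In Taf4IEC these medians were 27.5 against 1.79 and 28.1 against 1.5. Defa24 stood at 13.0 against 0.657 in the median control cell and at 8.67 against 0.354 in Taf4IEC. The variance over the mean of a gene's UMIs, which is about 1 when UMIs fall on equal cells at random, was 2.81 in shallow against 13.2 in deeper control cells for Tff3 and 10.9 against 43.8 for Defa24. In Taf4IEC it was 4.64 against 19.9 and 6.87 against 32.7, while Eef1a1 had between 1.09 and 1.34 in all 4 sets. Lineage transcripts were therefore more even over shallow cells, but still above 1, and Malat1 went the other way, with 27.9 against 6.11 and 31.2 against 11.8. Cell types were not named here, so that no type lacking these genes could serve for a background share, and the part of RNA free in the suspension in these values was not tested.

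**Figure D4:**
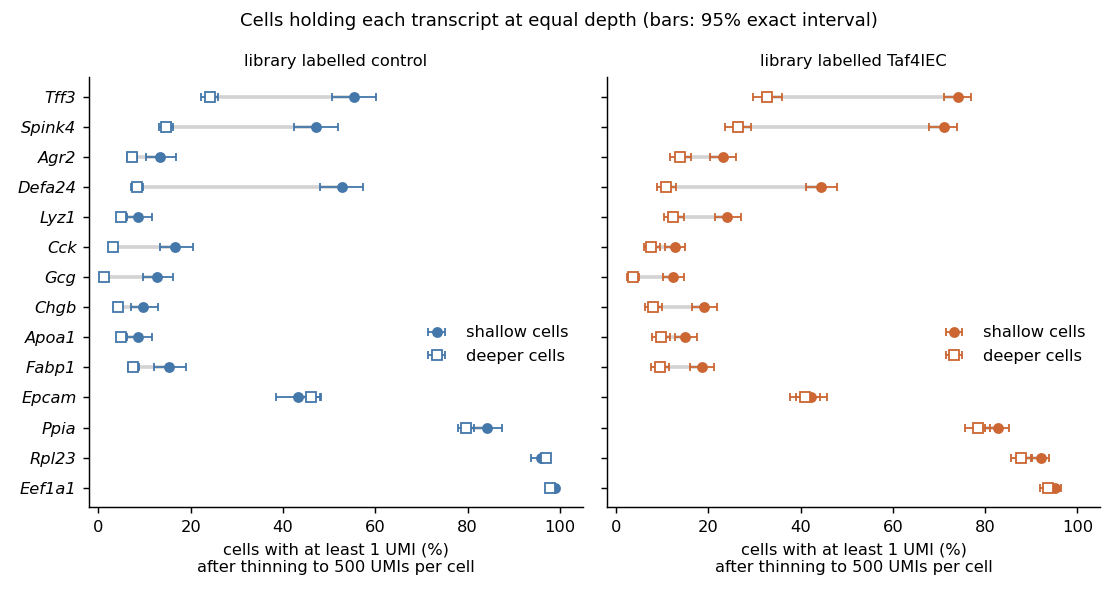
Percent of cells with at least 1 UMI of each of 14 genes after thinning every cell to 500 UMIs, for shallow and deeper cells of the control and Taf4IEC, with exact 95% intervals. The genes of differentiated cells (Tff3 to Fabp1) lie higher in shallow cells, as for Tff3 with 55.4% against 24.1% and 74.0% against 32.8%, and the shares of Epcam and Eef1a1 lie close together.

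Some shallow cells nevertheless held lineage transcripts in large amounts. The richest 10% of shallow cells held 71.4% (control) and 77.1% (Taf4IEC) of enteroendocrine UMIs, 41.3% and 58.7% of Paneth UMIs and 36.9% and 40.7% of goblet UMIs. For housekeeping mRNAs the same share was 19.2% and 20.8%. Enteroendocrine transcripts were thus the most concentrated of these 4 lists. Tac1, which encodes the precursor of substance P, was extreme in this, as 10 cells held 98.2% of its 57 UMIs in the control. For Defa30, 10 cells held 73.3% of its UMIs in the Taf4IEC shallow cells. The richest cells for goblet and Paneth transcripts were the same in 17 of 44 cases (38.6%) in the control and 36 of 89 (40.4%) in Taf4IEC. Unrelated sets of 10% of the cells would share about 10%. The G2/M and histone lists shared 11 of 44 and 38 of 89, and the enteroendocrine and enterocyte lists 2 of 44 and 29 of 89. Between the G2/M and the enteroendocrine lists 0 of 44 and 0 of 89 were shared.

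By pooled level, enteroendocrine genes were the lineage list furthest above the deeper cells in the control. The summed level was 43.1 against 17.4 per 10000 (log2 ratio 1.31, 1.24 to 1.37). Of 11 genes 7 were past 2-fold higher and 1 past 2-fold lower, Nts, the gene of the peptide neurotensin. Over all control genes these shares were 0.892% and 0.759%, and genes low in deeper cells, such as Ghrl, entered only through the shallow cells. In Taf4IEC it was 49.3 against 46.4 (0.09, 0.04 to 0.13), with 1 of 12 genes past 2-fold higher. Ghrl, which encodes the hunger hormone ghrelin, was the gene past the limit in both, at 1.58 against 0.284 (2.48, 2.13 to 2.81) and 2.42 against 0.542 (2.16, 1.93 to 2.38). Cck, the gene of cholecystokinin, was at 12.3 against 3.55 (1.80) in the control and at 15.1 against 16.1 (-0.09) in Taf4IEC. Gcg, which encodes proglucagon, was at 9.36 against 2.93 (1.68) and at 10.1 against 6.07 (0.73). The depth bins were not ordered, with 72.8, 28.9, 68.7, 111 and 13.8 per 10000 for the list in the control. The control ratio therefore turned on the deeper cells it was set against, and with those of 2000 to under 10000 UMIs the median over the genes was -1.53 and Ghrl was at -0.59. Among cells under 5% mitochondrial UMIs, Cck was at -0.85 and Gcg at -1.40.

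The pooled ratios of the Paneth, enterocyte and stem lists differed in sign between the libraries. Paneth markers were at 32.0 against 20.6 per 10000 in the control (log2 ratio 0.64) and 60.4 against 75.7 in Taf4IEC (-0.33). Within this list the defensin Defa30 was higher in shallow cells of both, at 1.60 against 0.482 (1.73) and 9.34 against 2.34 (2.00), and Lyz1, the Paneth cell lysozyme, lower, at 1.97 against 3.33 (-0.75) and 6.56 against 17.1 (-1.38). Among cells under 5% mitochondrial UMIs Defa30 turned, to -0.38 and -0.39. Goblet markers had ratios of 0.00 (-0.06 to 0.06) and -0.66 and enterocyte markers of 0.24 and -0.57. Stem markers were at 15.2 against 19.6 (-0.36) and 15.9 against 13.2 (0.27). Lgr5, the receptor that marks crypt base stem cells, had ratios of -0.56 and -0.11, and Olfm4, a further stem cell gene, -0.20 and 0.19. With the deeper cells of 2000 to under 10000 UMIs the summed ratios were 0.25 and 0.05 for stem, 0.01 and -0.16 for enterocyte and 0.44 and -0.16 for Paneth markers. Tuft markers were near 0, at 0.0822 and 0.457 per 10000 in shallow cells.

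Histone transcripts and, in Taf4IEC, genes of cell division were higher in shallow cells than in all deeper cells pooled. The replication-dependent histones, a list taken by gene symbol, were added after the values were seen. Most, but not all, histone mRNAs of this kind lack the poly(A) tail that 3′ capture normally uses. The list was at 8.80 against 5.05 per 10000 in the control (log2 ratio 0.80, 0.66 to 0.94) and 16.6 against 6.0 in Taf4IEC (1.47, 1.39 to 1.55). Past 2-fold higher were 2 of 5 genes in the control and 5 of 6 in Taf4IEC, where Hist1h2bc was at 0.01. Over all genes the shares were 0.892% and 1.52%. As the minimum level is a mean of both sides, genes low in deeper cells, such as Hist1h4d, were counted only because shallow cells held more. The linker histone Hist1h1e was at 1.87 against 0.810 (1.21) and 3.45 against 0.535 (2.69), and Hist1h4d, a histone H4 gene, at 0.802 against 0.311 (1.37) and 1.24 against 0.152 (3.03). Hist1h1b, a further linker histone, was at 1.54 against 0.948 (0.70) and 1.62 against 0.188 (3.11). Set against deeper cells of 2000 to under 10000 UMIs, the control list had a summed ratio of 1.21 (1.03 to 1.39) and the Taf4IEC list one of 0.07 (-0.03 to 0.18), which spanned 0.

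Genes of G2 and M phase were at 43.8 against 38.0 per 10000 in the control (log2 ratio 0.20), where 0 of 23 were past 2-fold. In Taf4IEC they were at 43.9 against 21.4 (1.04), and 11 of 16 were past 2-fold higher, against 1.52% of all genes. The minimum level is a mean of both sides. Genes under 0.5 in deeper cells, such as Top2a and Mki67 in Taf4IEC, thus entered only because shallow cells held more. This count and the medians below are therefore no evidence, whereas the sums hold all 52 genes. Top2a, the topoisomerase that untangles chromosomes, was at 1.77 against 1.56 (0.18) and 1.80 against 0.332 (2.44). Mki67, which encodes the proliferation antigen Ki-67, was at 0.884 against 1.01 (-0.19) and 1.21 against 0.289 (2.07). The level in shallow cells of both libraries was thus almost the same, and it was the deeper cells that were low in Taf4IEC. Along the bins the Taf4IEC list went from 43.7 and 44.2 through 38.6 and 24.1 to 20.9 per 10000, and in the control from 43.6 and 43.8 through 28.5 and 22.6 to 38.6. Against deeper cells of 2000 to under 10000 UMIs, the median over the list was 0.81 in the control and 0.41 in Taf4IEC, where it was 0.18 and 1.27 against all deeper cells. S phase genes had summed ratios of -0.23 and 0.83, and of 0.68 and 0.26 against the deeper cells of 2000 to under 10000 UMIs. Ezh2, the methyltransferase of Polycomb repressive complex 2 (PRC2), was at 0.493 against 0.914 in the control (-0.89, -1.53 to -0.31) and 0.862 against 0.614 in Taf4IEC (0.49, 0.11 to 0.85), and its partner Suz12 had ratios of -0.28 and 0.36.

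Targets of p53 differed little between shallow and deeper cells of a library, with summed log2 ratios of -0.03 and 0.03. Past 2-fold lower were 2 of 8 genes in the control, Cdkn1a and the antiproliferative gene Btg2, and 1 of 13 in Taf4IEC, Cdkn1a. The p53 target Cdkn1a lies at chr17:29090979-29100722. Its level was 0.843 per 10000 in control shallow cells, from 41 UMIs, against 1.95 in deeper ones (-1.21, -1.69 to -0.77), and 3.08 against 6.26 in Taf4IEC (-1.02, -1.21 to -0.84). Against deeper cells of 2000 to under 10000 UMIs the Taf4IEC ratio was 0.20. Gdf15, a stress cytokine among the targets, lay on the other side, with ratios of 0.57 and 0.61. Other stress lists had small ratios too, namely 0.15 and 0.17 for the integrated stress response, -0.06 and 0.26 for heat shock proteins, -0.15 and -0.20 for immediate early genes and 0.03 and 0.15 for the apoptosis machinery.

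Between the shallow cells of the 2 libraries, more genes lay past 2-fold than between shallow and deeper cells of 1 library. Of 2397 genes, 139 (5.8%) were past 2-fold higher in Taf4IEC and 21 (0.876%) past 2-fold lower, and the median ratio was 0.18. Between the deeper cells these were 111 (4.75%) and 39 (1.67%) of 2335, with a median of 0.10. These directions rest on the labels of the libraries. As each condition is 1 library and as the Taf4IEC shallow cells had fewer UMIs, condition, library and depth cannot be told apart.

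The targets of p53 were at 38.2 per 10000 in the Taf4IEC shallow cells and 19.3 in those of the control (log2 ratio 0.99, 0.88 to 1.09), and at 0.92 in deeper cells. Of 10 genes at the minimum level 5 were past 2-fold higher and 0 lower, against 5.8% and 0.876% of all genes. The median was 1.09 where that of all genes was 0.18. As the minimum level is a mean of both sides, genes low in the control, such as Phlda3, entered only because Taf4IEC held more. This count and this median therefore favour large ratios and are no evidence, whereas the sum holds all 28 targets. Cdkn1a was at 3.08 against 0.843 per 10000 (1.87, 1.39 to 2.39; 1.68 in deeper cells). Ccng1, which encodes cyclin G1, was at 2.76 against 0.699 (1.98, 1.45 to 2.55). Phlda3, an inhibitor of Akt signalling, was at 0.810 against 0.288 (1.49) and Gdf15 at 2.89 against 1.25 (1.20). Bax, a mediator of apoptosis, was at 3.30 against 1.87 (0.82). The shallow cells thus held the higher level of these targets in Taf4IEC at nearly the same ratio as the deeper cells.

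The integrated stress response list was lower in Taf4IEC, with 9.84 against 21.0 per 10000 in shallow cells (log2 ratio -1.09) and a ratio of -1.11 in deeper cells. Its leading gene Nupr1, a stress-induced chromatin protein, was at 3.70 against 11.4 (-1.63, -1.84 to -1.42). Ribosomal protein mRNAs were also lower by nearly the same ratio in both, at -0.47 and -0.43, with 0 of 81 past 2-fold.

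For 4 lineage lists and for the genes of S phase and G2/M the difference between libraries was smaller in shallow than in deeper cells. The goblet list was 1.00 higher in shallow and 1.67 higher in deeper cells on the log2 scale, the Paneth list 0.91 and 1.88, the enterocyte list 0.36 and 1.17, and the enteroendocrine list 0.19 and 1.42. The G2/M list had 0.01 in shallow cells and -0.83 in deeper cells, and the S phase list -0.01 and -1.06. These 6 lists were thus nearer to 0 in the shallow cells, without a test of the difference. The sum over histones went the other way, with 0.92 in shallow and 0.25 in deeper cells. In deeper cells this sum rested on Hist1h2bc, with 7454 of the 14531 histone UMIs of Taf4IEC. Of the 3 histone genes at the minimum level there, Hist1h2bc was at 2.50 and Hist1h1e and Hist1h1b at -0.60 and -2.34. In shallow cells the same genes were at 1.88, 0.88 and 0.07. The rare tuft transcripts (2.47 from 35 against 4 UMIs, 0.99 to 4.43, and 1.57) and the ribosomal DNA list (1.19 and 0.76) were also further from 0 in shallow cells. Mitochondrial transcripts differed in sign, with -0.37 and 0.16. Among single genes, Zg16, a goblet lectin, was at 2.53 against 0.267 per 10000 in shallow cells (3.24, 2.44 to 4.18; 4.65 in deeper cells), and Itln1, a Paneth and goblet lectin, at 9.31 against 1.71 (2.45; 2.81). The defensin Defa22 was at 3.06 against 0.350 (3.13; 3.20), and Defa30 at 9.34 against 1.60 (2.54; 2.28). Defensin genes are near-identical copies, and the counting could split their reads. In shallow cells of 1000 to under 2000 UMIs alone Defa22 turned to -1.56 and Defa30 stood at 1.04. Ccnd1, which encodes cyclin D1, was at 1.19 against 0.185 (2.68; 1.55).

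**Figure D5:**
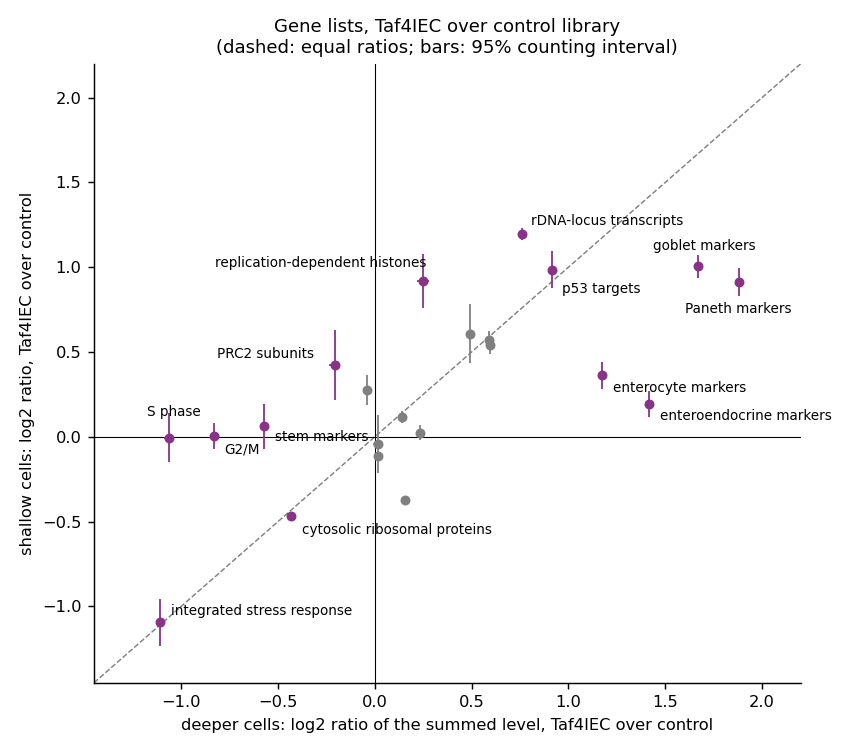
Each point is a gene list, with its log2 ratio of Taf4IEC over control in deeper cells (horizontal axis) and in shallow cells (vertical axis), 95% intervals for counting error and a dashed line for equal ratios; grey lists are not named. The p53, integrated stress response and ribosomal protein lists lie near that line, the goblet, Paneth, enterocyte, enteroendocrine, S phase and G2/M lists lie nearer to 0 in shallow cells, and the histones (0.92 and 0.25) further from it. The tuft list and the markers of other tissues are not plotted.

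Some genes separated the libraries in shallow cells as they did in deeper cells. Bex1, a small adaptor protein of neural and endocrine cells, had 286 UMIs in control shallow cells (5.88 per 10000) and 0 in those of Taf4IEC. With a floor of 3 counts over the pooled cells this is at least 150.1-fold lower, and in Taf4IEC deeper cells the level was 0.0281. Gm10260, a ribosomal protein pseudogene (Rps18-ps6 in RefSeq), had 343 UMIs against 1 (log2 ratio -9.08, -14.38 to -6.59), and its reads could belong to its parent gene. Spp2, a secreted phosphoprotein, had 50 UMIs against 6 (-3.71, -5.23 to -2.49).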

How the data were processed

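Single-cell RNA-seq of 1 control and 1 Taf4IEC enteroid library was used. The deposited values are raw UMI counts per gene and cell, which the authors made by aligning reads to mm10, without normalization. The submitters' processing notes name bcl2fastq 2.17.1.14, Cell Ranger 3.1 and Seurat 3.1.4, and the annotation version is not given in the sources used here. The authors' filter asked for 200 to 6000 genes and less than 15% mitochondrial reads, which all cells in the files met. The origin of the lower end near 500 UMIs is not given in the sources used here. Doublets were not removed.

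Cells under 2000 UMIs were compared with all deeper cells of the same library, and between libraries. UMIs were pooled per set of cells and given per 10000, with exact Poisson intervals for levels, exact conditional binomial intervals for log2 ratios, Clopper-Pearson intervals for shares and Newcombe intervals for differences of shares, all at 95%. Genes with a mean of the levels compared of at least 0.5 per 10000 entered counts past 2-fold and list medians. A gene low on 1 side thus entered only if the other side was higher, which favours large ratios in both. For a level of 0, a floor of 3 counts over the pooled cells was used. For shares of cells with a UMI and for genes per cell, each cell was thinned at random without replacement to 500 UMIs, and 0 cells were left out. Computations used Python 3.11.15, numpy 2.4.6, pandas 2.3.3, scipy 1.17.1 and matplotlib 3.10.9, and were tested on simulated data. Coordinates are from RefSeq for GRCm38.p6, which held 135 of 144 named genes. Columns of other samples were not present, and no test was made.

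The shallow cells, the gene lists and the named genes were chosen with earlier results of these data known. The named genes were the 3 markers of shallow cells, Gm26917, Malat1, Taf4, Cdkn1a, Ezh2, Suz12, Lgr5, Olfm4 and Lyz1, the 10 highest and 10 lowest ratios of shallow over deeper cells taken by the weaker library, the 5 each way that differed most between libraries, the 10 each way between the shallow cells of the libraries, and the 4 most abundant genes of each list. Genes outside this rule, such as Ccng1, Phlda3, Btg2, Nts and mt-Atp8, were named after their values were seen, as were the histone list, the spread over thinned cells and the selection of cells by single genes. The alternatives were a limit of 1000 UMIs, cells of 1000 to under 2000 UMIs, deeper cells of 2000 to under 10000 UMIs, cells under 5% mitochondrial UMIs, equal weight for every cell, other minimum levels and levels without mitochondrial, ribosomal protein and ribosomal DNA genes and Malat1.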

Additional observations from a re-analysis of the deposited data

Results flagged for a closer look

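Of 24 gene lists, 5 had summed log2 ratios of shallow over deeper cells that were on opposite sides of 0 in the libraries, with intervals for counting error clear of 0 in each. The difference between the libraries was not tested, since each condition is 1 library. S phase genes were at -0.23 in the control and 0.83 in Taf4IEC, and the PRC2 subunits at -0.22 and 0.41. Stem markers were likewise lower in control shallow cells (-0.36) and higher in those of Taf4IEC (0.27). Enterocyte and Paneth markers went the other way, with 0.24 and 0.64 in the control and -0.57 and -0.33 in Taf4IEC. Of these lists, only Paneth markers kept opposite signs with intervals clear of 0 against deeper cells of 2000 to under 10000 UMIs. They were at 0.44 (0.35 to 0.52) in the control and -0.16 (-0.22 to -0.11) in Taf4IEC. These intervals leave out the spread among cells. A single control shallow cell held 216 of the 1558 Paneth UMIs, and a single Taf4IEC one 202 of 4622. Against deeper cells of 2000 to under 10000 UMIs, S phase genes were at 0.68 and 0.26 and stem markers at 0.25 and 0.05. Enterocyte markers were at 0.01 and -0.16 and the PRC2 subunits at -0.02 and 0.44, with control intervals that spanned 0. In the shallow cells alone these lists were nearer to each other between the libraries than in the deeper cells for S phase genes (log2 ratios of Taf4IEC over control of -0.01 and -1.06), stem (0.06 and -0.57), enterocyte (0.36 and 1.17) and Paneth markers (0.91 and 1.88), while the PRC2 subunits had 0.42 and -0.21.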

How the results depend on the processing

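The limit, the deeper cells compared, the mitochondrial limit and the minimum level all moved values. No paired analysis was possible because each condition is 1 library. There was no cell under 500 UMIs, so that a lower limit of 500 gave the same values. The settings with cells of 1000 to under 2000 UMIs and with Gm42418 and AY036118 alone were chosen after seeing the data. Depth limits single genes in shallow cells, where 0.5 per 10000 is few UMIs. The cause of the moves was not tested.

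The share of shallow cells was 8.43% in the control and 36.4% in Taf4IEC at a limit of 1000 UMIs (28.0 points apart), 9.71% and 20.0% for 1000 to under 2000 UMIs (10.3 points), and 44.1% and 73.7% among cells under 5% mitochondrial UMIs. The ratio of the ribosomal DNA list was 3.13 and 2.75 at a limit of 1000 and 2.57 and 3.55 for 1000 to under 2000. It was 2.47 and 1.74 with equal weight per cell and 1.12 and 0.53 against deeper cells of 2000 to under 10000. Under 5% mitochondrial it was 2.60 and 2.18, and from Gm42418 and AY036118 alone 2.64 and 2.99.

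Genes past 2-fold higher in shallow cells of the control (20) became 57 at a limit of 1000, 41 without mitochondrial, ribosomal and Malat1 transcripts, 38 against deeper cells of 2000 to under 10000, 70 at a minimum of 0.2 and 5771 with no minimum. Those past lower (17) became 48, 55, 94, 104 and 795 in the same order, 31 under 5% mitochondrial and 30 for 1000 to under 2000. In Taf4IEC those higher (38) became 24 with equal weight, 63 without the named transcripts, 14 against 2000 to under 10000, 132, 4923 and, for 1000 to under 2000, 80. Those lower (16) became 56 under 5% mitochondrial, 43 at a minimum of 0.2, 472 with none and 43 for 1000 to under 2000. Between the shallow cells of the libraries, higher (139) became 221 at a limit of 1000, 512 at 0.2 and 1894 with no minimum, and lower (21) became 57, 77 and 1818, 100 without the named transcripts and 42 for 1000 to under 2000. The p53 median (1.09) was 0.96 without the named transcripts, 1.32 under 5% mitochondrial and 1.34 for 1000 to under 2000.

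Directions of genes and lists past 2-fold turned as follows. Against deeper cells of 2000 to under 10000 UMIs, the control enteroendocrine median was -1.53, Ghrl -0.59 and Tac1 -1.52 in the control, and Cdkn1a 0.20 and Gm26917 -0.25 in Taf4IEC. Malat1, within 2-fold against all deeper cells, was -0.49 in the control and -0.13 in Taf4IEC there. Under 5% mitochondrial, the control had -0.46 for the enteroendocrine median, -0.85 for Cck, -1.40 for Gcg, -0.13 for Defa22 and -0.38 for Defa30, and Taf4IEC had -0.68 for Defa22 and -0.39 for Defa30. For 1000 to under 2000 UMIs, Gcg was -0.66 in the control, Defa22 -3.80 in Taf4IEC and -1.56 between the libraries, and Nts -0.56 between them. At a limit of 1000, Tac1 was -1.97 in the control.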
